A study of Mus musculus with 16 samples.

Results

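The Timm and Tomm genes, which encode translocases of the inner and outer mitochondrial membrane, were examined in brain RNA of Prepl knockout mice and PWS-IC deleted mice. Members were all gene symbols in the count tables that begin with Timm or Tomm followed by a digit, with pseudogene entries left out. There were 25 of them among 43472 symbols, 14 Timm and 11 Tomm. They comprise 9 genes of the outer membrane (TOM) complex, the cytosolic cofactor Tomm34, 5 genes of the TIM23 translocase of the inner membrane, the import motor gene Timm44, 2 genes of the TIM22 complex of the inner membrane, 6 small TIM chaperones of the space between the membranes, and the noncoding RNA Tomm6os.

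Most mitochondrial proteins are made in the cytosol and enter through the TOM complex, whose receptors (Tomm20, Tomm22, Tomm70a) pass them to the channel protein Tomm40. Proteins with a cleavable presequence then go through the TIM23 channel into the matrix, pulled by a motor that Timm44 ties to the channel. Carrier proteins of the inner membrane are instead escorted by the small TIM chaperones to the TIM22 complex. In neurons these routes supply the proteins of the respiratory chain, and loss of the human small TIM gene TIMM8A causes a deafness and dystonia syndrome.

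The study had 16 mouse brain libraries in 4 groups of 4: Prepl knockout and its WT controls, and PWS-IC deleted and its WT controls. Prepl encodes a serine hydrolase whose loss causes a congenital myasthenic syndrome in people, and PWS-IC, the Prader-Willi imprinting centre, is needed for activity of the paternal genes around it. The comparison was set up to look for molecular similarities between the conditions these mice model. The labels give no strain, age, allele design or brain region and do not call the replicates separate animals, so each p-value speaks only to the spread among these samples. The Prepl knockouts were 4 males, whereas their wild types were 1 male (replicate 4) and 3 females, as read from Xist and Y-linked genes. The PWS-IC deleted group and its wild types each held 2 males and 2 females. Reads in genes numbered 3477624 to 5852716 per library. In the Prepl knockouts Prepl was at 1.64 ± 0.453 CPM (SD, n = 4), against 34.8 ± 1.35 in their wild types. In the PWS-IC deleted libraries Ndn, a paternally expressed gene of the region, was at 4.30 ± 1.90 CPM, against 555.6 ± 11.1 in their wild types. CPM is a count divided by the reads in genes of its library, on the usual scale; the libraries read the 3′ ends of transcripts, so a level does not grow with transcript length. All 5 neuron markers checked were found in each group, with a summed level of 4086 to 4757 CPM over the 16 libraries. Of the 5 oligodendrocyte markers, 1 (Mog) was at 0 in each PWS-IC library. The summed level of that list was 63.8 to 73.4 CPM in PWS-IC deleted and 65.7 to 72.6 in its wild types.

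Promoter sequences were available for 22 of the 25 members, as RefSeq windows of 300 bases from 250 before to 50 after the annotated start in GRCm38.p6. Timm21, Tomm40l and Tomm7 were without one. Those of Tomm70a and Timm9 are printed because these were the members that stood closest to a difference in the Prepl and PWS-IC comparisons, and both carry a repeated motif. The Tomm70a promoter lies at chr16:57121464-57121763 on the plus strand, and its capitals mark CCGGAAG, the core of an ETS-type element, once as written and once on the other strand. The Timm9 promoter lies at chr12:71136626-71136925 on the minus strand, and its capitals mark the E box CACGTG. The first motif starts 80 bases before the annotated start in Tomm70a (offset -80) and 58 before it in Timm9 (offset -58).

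Tomm70a: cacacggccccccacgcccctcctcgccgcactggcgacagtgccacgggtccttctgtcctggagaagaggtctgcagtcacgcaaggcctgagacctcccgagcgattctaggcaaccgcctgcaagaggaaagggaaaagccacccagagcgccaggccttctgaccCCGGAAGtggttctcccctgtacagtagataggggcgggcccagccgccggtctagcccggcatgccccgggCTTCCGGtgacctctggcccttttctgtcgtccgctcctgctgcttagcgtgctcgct

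Timm9: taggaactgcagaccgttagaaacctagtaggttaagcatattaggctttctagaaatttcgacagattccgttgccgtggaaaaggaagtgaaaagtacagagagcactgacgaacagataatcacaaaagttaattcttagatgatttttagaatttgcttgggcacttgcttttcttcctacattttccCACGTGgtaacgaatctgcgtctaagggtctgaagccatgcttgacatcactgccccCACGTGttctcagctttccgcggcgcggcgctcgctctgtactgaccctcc

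With both strands read, CCGGAAG was found in 8 of the 22 member promoters (36.4%), namely those of Timm10, Timm10b, Timm23, Timm8a2, Timm8b, Tomm22, Tomm34 and Tomm70a. It was found in 15.9% of the 12953 promoters of tested genes and in 8.86% of all 32851 promoters. The E box stood in 6 of 22 (27.3%), those of Timm10, Timm8a1, Timm9, Tomm20, Tomm20l and Tomm6os, against 9.62% of promoters of tested genes and 7.15% of all. The CCAAT box, in 7 of 22 (31.8%), was about as common in tested genes (37.6%). The NRF1-type motif (GCGCA, any base, GCGC) was found in 2 members, Timm8b and Tomm20 (9.09%, against 9.36% of tested genes). The YY1-type motif AAGATGGC was found in Timm50 alone (4.55%, against 4.11%). The 22 members include 6 that were too low to be tested, so they and the tested genes are not like sets. Of these 6, Timm23 and Timm8a2 carry CCGGAAG, Timm8a1, Tomm20l and Tomm6os the E box, and Tomm20l and Tomm6 the CCAAT box. All these matches describe letters in a window and were not tested as sites.

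The members spanned a wide range of levels, and the same 3 genes led in each group. Tomm7, a small subunit that modulates TOM assembly, led with a mean of 195.7 CPM over the 16 libraries (150.3 to 247.2). It was followed by the receptor Tomm70a at 179.9 CPM (149.6 to 209.8) and the small TIM chaperone Timm8b at 165.0 CPM (131.9 to 199.7). The ranges of these leading genes overlapped, so their order is not separated, but Timm8b lay above the next gene, Timm13 at 86.1 CPM (62.1 to 108.5), in every library. No other neighbours in the order had ranges that were apart. Tomm20 (84.1 CPM), Tomm22 (77.9), Timm9 (65.3), Timm17b (58.1) and the channel gene Tomm40 (50.5) came next. Timm17a averaged 44.9 CPM, Timm44 39.2, Timm10 38.7, Timm22 34.9, Timm50 29.8, Timm10b 28.8 and Tomm40l 24.0. Below them stood Tomm34 (17.9 CPM), the small TOM subunit Tomm5 (11.5) and Timm21 (4.22), a TIM23 subunit that contacts the TOM complex.

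**Figure D1:**
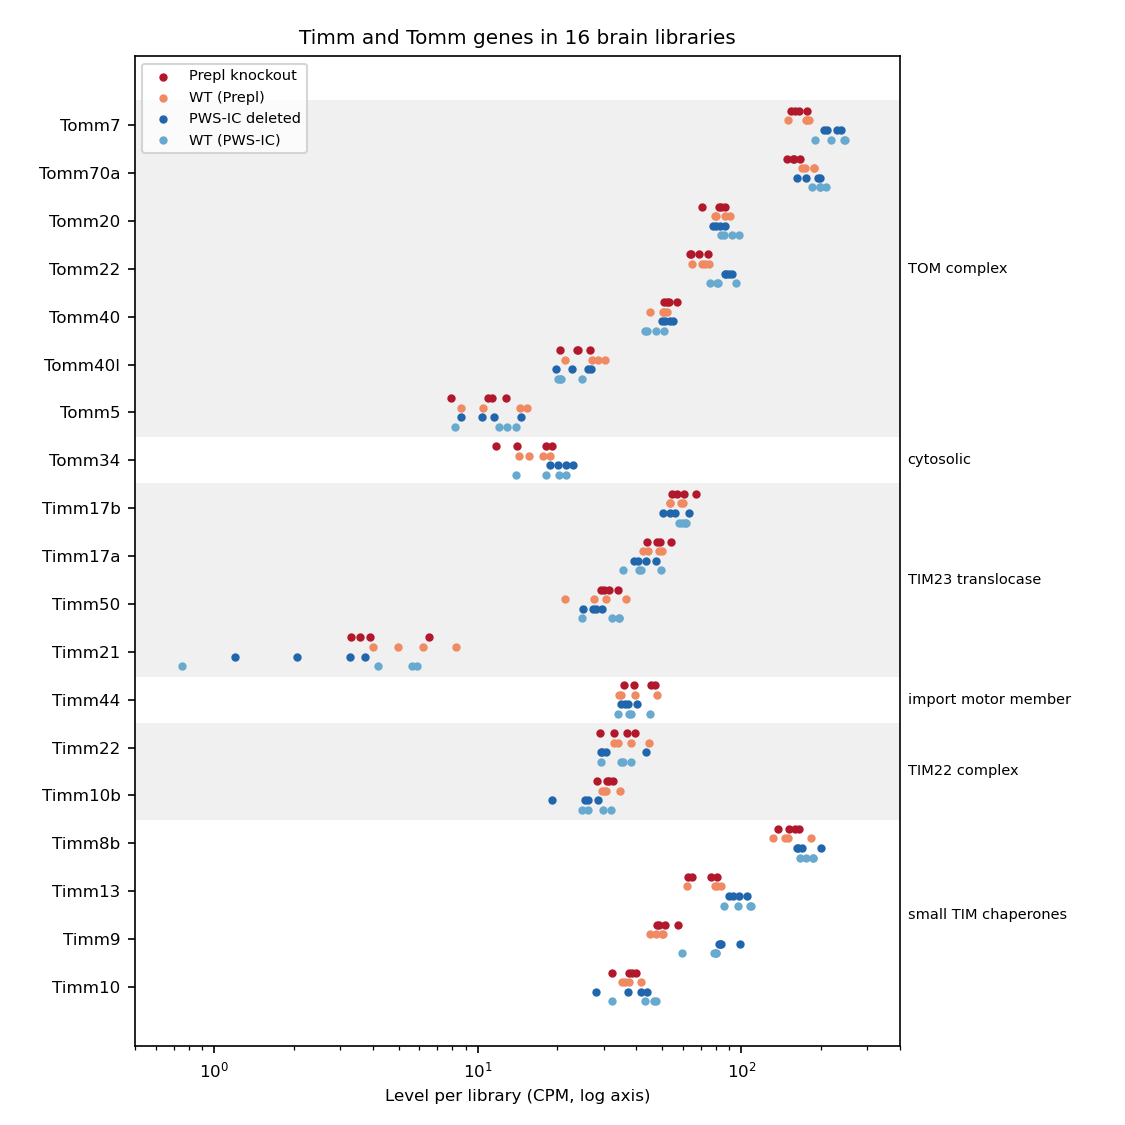
Level of each of the 19 tested members in every library, in CPM on a log axis, by complex and coloured by group; each point is 1 library. Tomm7, Tomm70a and Timm8b stand at the top in all 4 groups, and Timm21, at 0.757 to 8.28 CPM, at the bottom.

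The other 6 members were too low to be tested: Timm23, Timm8a1, Timm8a2, Tomm20l, Tomm6 and Tomm6os. Timm23, which encodes the channel subunit of the TIM23 translocase, had 1 to 9 reads in a library. Its values were 0.39, 0.992, 1.47 and 0.199 CPM in Prepl knockout, against 1.99, 0.861, 0.517 and 1.14 in its wild types. They were 0.481, 1.14, 1.73 and 0.69 CPM in PWS-IC deleted, against 0.171, 1.33, 0.728 and 0.571 in its wild types. Of the 50-base words in the last 500 bases of its protein-coding transcripts, 90.1% also occur in transcripts of other genes, Gm10273 among them. Reads from such a stretch may not align uniquely, and 25.2% to 30.9% of all tabled reads were set aside as not unique. Whether reads of Timm23 were among those was not tested, so its count is not taken as a measure of the gene. Tomm6, another small TOM subunit, had 0 to 4 reads, and 67.3% of its words are shared with Gm21981, which overlaps it on the same strand. Timm8a1, the mouse counterpart of TIMM8A, had 0 to 10 reads and shares none of its words, and the related Timm8a2 had 0 to 5. Tomm20l, a relative of Tomm20, had 0 to 4 reads. Sharing was lower in tested members: 20.8% of the words of Timm10b, 14.7% of Tomm20, 8.54% of Timm17a and 6.79% of Tomm5, and 0.887% or less in the other 15. How strand was treated in counting is not given in the sources used here. For this reason, reads of Timm21, which lies inside Fbxo15, of Tomm40l, which overlaps Nr1i3, and of Timm9, which overlaps Tomm20l by 49 bases, cannot be told apart with certainty from those of the opposite strand. The same holds for the overlaps of Tomm34 with Stk4 (848 bases), Tomm40 with Gm20512 (423) and Timm10b with Arfip2 (361). Shorter ones were those of Timm44 with Gm26102 (284), Timm17b with Gm10491 (143) and Timm8b with Nkapd1 (81). Timm13 overlaps Tmprss9 by 43 bases and Tomm70a overlaps Nit2 by 41. On its own strand, Timm10b overlaps Gm45799 by 3086 bases.

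In both mutants the import genes lay close to their wild types. None of the 19 tested members was called in the Prepl knockout (edgeR's quasi-likelihood test, p adjusted by Benjamini-Hochberg under 0.05), where 0.262% of the 13722 genes tested were called. None was called in the PWS-IC deletion, where 4.52% of 13636 genes were. DESeq2 and limma voom also called no member in either. At an unadjusted p under 0.05 there was 1 member in the Prepl knockout (Tomm70a, where 9.43% of all genes passed) and 1 in the PWS-IC deletion (Timm9, where 18.2% passed). The median log2 fold change of the members was -0.02 in the Prepl knockout (all genes 0.00) and -0.04 in the PWS-IC deletion (all genes -0.01). The intervals limit how large a difference could have been missed. In the Prepl knockout, 17 of 19 members had a 95% interval within 0.5 of 0 on the log2 scale, and all 19 within 1. In the PWS-IC deletion 16 of 19 lay within 0.5 and 18 within 1, with Timm21 the exception. With sex as a term the Prepl intervals were wider, 12 of 19 within 0.5 and 17 within 1. That fit in effect sets the 4 male knockouts against the only male wild type, replicate 4. It therefore cannot tell an effect of sex from the values of that 1 library. The PWS-IC values were less precise with the percentage of reads outside genes, which separates those groups, as a covariate. Timm22 was then at 0.70 ± 0.531 and Tomm70a at 0.23 ± 0.324, and the median of the members was 0.17 (all genes 0.02). In bulk tissue, fewer cells of a type and less RNA per cell cannot be told apart.

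**Figure D2:**
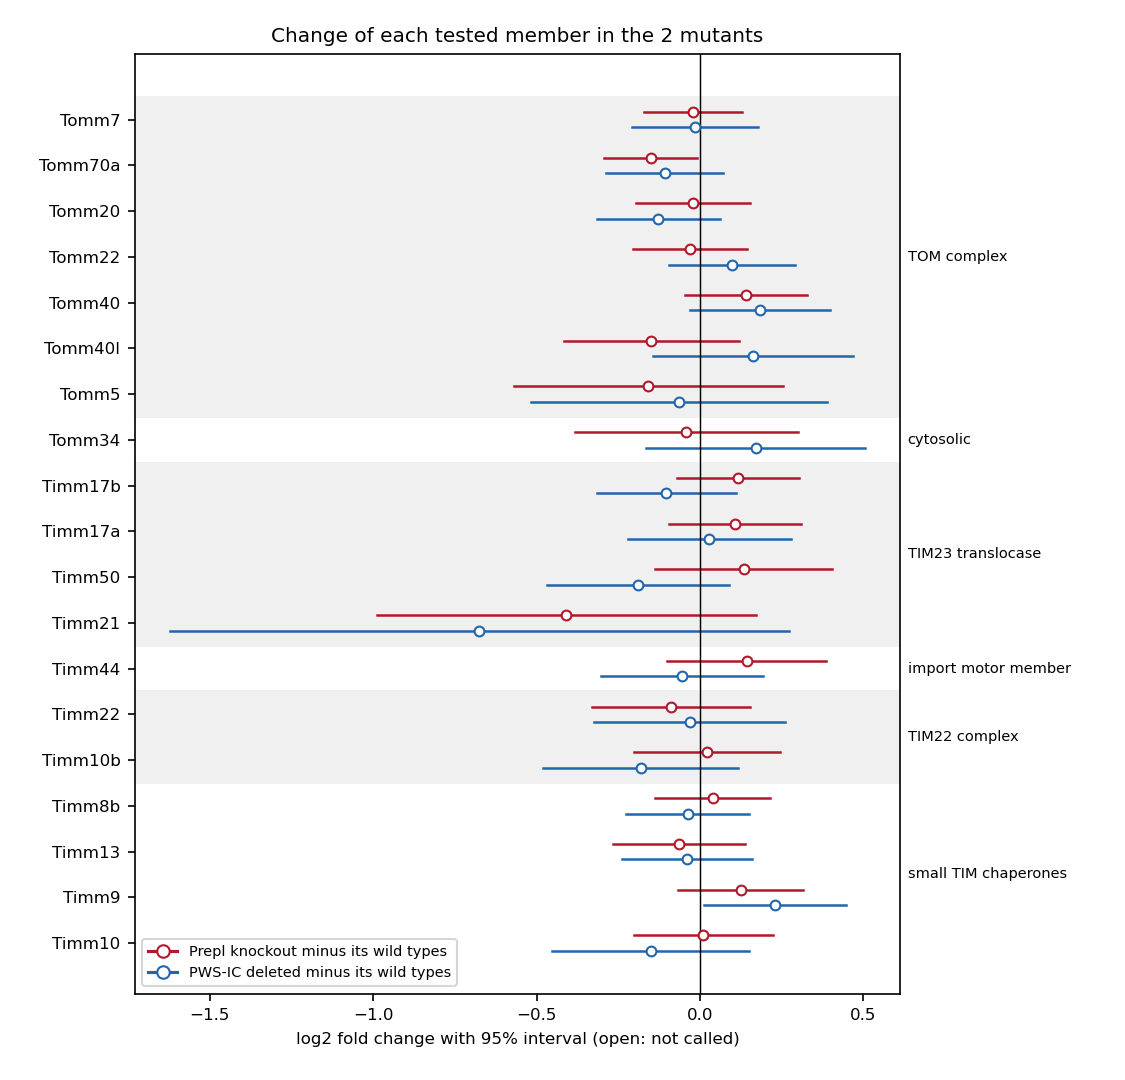
Log2 fold change of each tested member with its 95% interval, Prepl knockout minus its wild types above and PWS-IC deleted minus its wild types below, by complex; open points were not called. Every point is open, and the widest intervals belong to Timm21, Tomm5 and Tomm34.

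In the TOM complex, no receptor or channel gene was called in either mutant. Tomm70a, the receptor for carrier proteins (chr16:57121703-57156705), had 149.6, 157.5, 167.6 and 158.8 CPM in Prepl knockout, against 170.6, 188.6, 188.3 and 173.7 in its wild types. The knockout libraries were all lower, and it was 1 of 19 members whose groups did not overlap (5.69% of all genes tested). Its log2 fold change was -0.15 ± 0.0693 (SE, edgeR's quasi-likelihood test, p adjusted by Benjamini-Hochberg = 0.507, n = 4 per group), at an unadjusted p of 0.0391. With sex as a term, where the wild-type side rests on 1 male library, it was -0.10 ± 0.113. In PWS-IC deleted Tomm70a had 161.9, 195.1, 199.6 and 175.3 CPM, against 184.7, 198.8, 198.6 and 209.8 in its wild types. These groups overlapped, and the log2 fold change was -0.11 ± 0.0862.

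Tomm20, the receptor for presequences, had 70.7, 81.9, 86.4 and 83.8 CPM in Prepl knockout, against 90.4, 80.1, 86.4 and 79.4 in its wild types. Its PWS-IC deleted libraries had 82.8, 80.0, 77.9 and 86.6 CPM, against 86.3, 91.8, 83.4 and 98.2 in its wild types. Both pairs of groups overlapped, with log2 fold changes of -0.02 ± 0.0841 and -0.13 ± 0.0905. Tomm22, the central receptor that also holds the complex together, had 63.7, 64.3, 74.4 and 68.9 CPM in Prepl knockout, against 70.9, 73.0, 65.2 and 75.4 in its wild types. Among PWS-IC deleted libraries it reached 89.7, 92.6, 87.4 and 86.8 CPM, against 81.8, 76.3, 80.8 and 95.8 in its wild types. The highest library of the PWS-IC set was a wild type, replicate 4, and the log2 fold changes were -0.03 ± 0.0847 and 0.10 ± 0.0921.

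The channel gene Tomm40 had 52.2, 51.0, 57.2 and 53.2 CPM in Prepl knockout, against 50.8, 50.5, 52.4 and 45.0 in its wild types. In PWS-IC deleted it had 49.8, 51.3, 55.2 and 53.5 CPM, against 47.3, 43.2, 43.9 and 51.0 in its wild types. The mutant means were the higher ones in both sets, with overlap, and the log2 fold changes were 0.14 ± 0.0905 (edgeR's quasi-likelihood test, p adjusted by Benjamini-Hochberg = 0.661) and 0.18 ± 0.103 (adjusted p = 0.367). With sex as a term, again resting on 1 male wild type, the Prepl value was 0.28 ± 0.147. Tomm7 had 178.0, 154.6, 159.5 and 165.4 CPM in Prepl knockout, against 150.3, 175.5, 177.6 and 180.4 in its wild types. Tomm7 values in PWS-IC deleted were 212.2, 238.9, 231.2 and 206.0 CPM, against 246.0, 190.6, 247.2 and 218.4 in its wild types. The groups lay across each other, with log2 fold changes of -0.02 ± 0.0728 and -0.02 ± 0.0920.

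The second channel gene, Tomm40l, made up 30.7% ± 1.76 of the reads of Tomm40 and Tomm40l in Prepl knockout, against 35.1% ± 4.47 in its wild types (SD, n = 4 each). It made up 31.3% ± 3.94 in PWS-IC deleted, against 31.7% ± 1.30 in its wild types. Tomm5 had 10.7 ± 2.05 CPM in Prepl knockout and 12.3 ± 3.23 in its wild types, and 11.3 ± 2.51 in PWS-IC deleted and 11.8 ± 2.53 in its wild types. The 9 TOM genes together reached 559.3 ± 18.7 CPM in Prepl knockout, against 595.5 ± 22.1 in its wild types, and 664.0 ± 31.6 in PWS-IC deleted, against 677.2 ± 30.7 in its wild types. In both sets the summed values overlapped. The cytosolic cofactor Tomm34, which binds Hsp70 and Hsp90, had 11.7 to 19.0 CPM in Prepl knockout, against 14.3 to 18.9 in its wild types, and 18.8 to 23.004 in PWS-IC deleted, against 13.9 to 21.7 in its wild types.

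Among the inner membrane genes, the receptor Timm50, which takes over presequence proteins from the TOM complex, had 29.2, 30.2, 31.4 and 34.1 CPM in Prepl knockout, against 21.4, 27.6, 36.4 and 30.7 in its wild types. Its levels in PWS-IC deleted were 25.0, 28.0, 29.6 and 27.3 CPM, against 24.8, 34.5, 32.4 and 34.3 in its wild types. The 4 knockout libraries lay above the mean of their wild types (29.0 CPM) and the 4 deleted libraries below that of theirs (31.5 CPM), while each pair of groups overlapped. The log2 fold changes were 0.13 ± 0.131 (edgeR's quasi-likelihood test, p adjusted by Benjamini-Hochberg = 0.804) and -0.19 ± 0.133 (adjusted p = 0.492). The channel partners Timm17a and Timm17b are paralogs, and Timm17b is X-linked. Timm17a held 44.9% ± 0.859 of their joint reads in Prepl knockout and 45.0% ± 2.62 in its wild types, and 43.3% ± 3.43 in PWS-IC deleted and 40.9% ± 2.79 in its wild types. Timm17b had 54.5 to 67.1 CPM in Prepl knockout, against 53.6 to 59.8 in its wild types, and 50.3 to 63.3 in PWS-IC deleted, against 58.1 to 61.9 in its wild types. The motor gene Timm44 had 41.9 ± 5.28 CPM in Prepl knockout and 39.1 ± 6.18 in its wild types, and 37.1 ± 2.23 in PWS-IC deleted and 38.7 ± 4.66 in its wild types. Timm21 was the least precise member: it had 1.203, 2.05, 3.74 and 3.28 CPM in PWS-IC deleted, against 5.64, 0.757, 4.19 and 5.90 in its wild types. These rest on 4 to 33 reads a library, and the interval of its log2 fold change ran from -1.62 to 0.27.

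In the TIM22 complex, the channel gene Timm22 had 39.3, 36.7, 29.2 and 32.8 CPM in Prepl knockout, against 34.03, 44.8, 38.3 and 32.8 in its wild types. In PWS-IC deleted it had 30.6, 29.6, 29.3 and 43.5 CPM, against 29.2, 34.8, 35.5 and 38.3 in its wild types. Replicate 4 of the deleted group stood apart from the other 3, and the log2 fold changes were -0.09 ± 0.118 and -0.03 ± 0.140. Timm10b, a small TIM family protein bound to the complex, had 30.9 ± 1.81 CPM in Prepl knockout and 31.3 ± 2.31 in its wild types, and 24.8 ± 4.00 in PWS-IC deleted and 28.2 ± 3.36 in its wild types.

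A further subunit of this complex, added after its values were seen, was called higher in the PWS-IC deletion, but the call was not stable. It is no member by symbol, since the tables carry it as 1810026J23Rik, which RefSeq lists as an older name of Timm29 (chr9:21592722-21595970). It had 87.6, 87.3, 81.7 and 85.4 CPM in PWS-IC deleted, against 65.3, 69.7, 60.4 and 72.5 in its wild types. All deleted libraries were above all wild types, where 11.8% of all genes tested had groups without overlap. The log2 fold change was 0.36 ± 0.0942 (edgeR's quasi-likelihood test, p adjusted by Benjamini-Hochberg = 0.0328). In Prepl knockout it had 51.4, 59.3, 58.3 and 58.4 CPM, against 51.9, 55.8, 57.1 and 69.1 in its wild types. There the log2 fold change was -0.01 ± 0.0972 (edgeR's adjusted p = 0.992), and the difference between the mutant effects, 0.37 ± 0.136, did not pass (adjusted p = 0.248). The PWS-IC call was lost in 6 of 8 leave-one-out fits, namely without replicates 1, 2 or 4 of the deleted group or replicates 1, 3 or 4 of the wild types, with log2 fold changes of 0.30 to 0.39 and adjusted p of 0.0259 to 0.124 over the 8 fits. With the percentage of reads outside genes as covariate it was not called either (0.62 ± 0.358, adjusted p = 0.999). That share, 17.7% to 20.1% in PWS-IC deleted and 11.4% to 13.7% in its wild types, separates the groups.

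Of the small TIM chaperones, Timm9 (chr12:71123173-71136684), which forms a ring with Timm10 that carries hydrophobic proteins across the intermembrane space, had 82.3, 83.0, 83.4 and 98.7 CPM in PWS-IC deleted, against 80.0, 59.4, 80.3 and 78.4 in its wild types. The deleted libraries were all higher, 1 of 19 members without overlap (11.8% of all genes tested). The log2 fold change was 0.23 ± 0.104 (edgeR's quasi-likelihood test, p adjusted by Benjamini-Hochberg = 0.239, n = 4 per group), at an unadjusted p of 0.0382. It was 0.17 without replicate 4 of the deleted group, 0.14 without replicate 2 of the wild types and 0.11 ± 0.399 with the percentage of reads outside genes as covariate. That share was 19.1% ± 1.15 in PWS-IC deleted and 12.3% ± 1.03 in its wild types. Summed blood markers also differed, at 1203 to 1629 CPM in PWS-IC deleted, against 1796 to 3970 in its wild types. Summed meningeal fibroblast markers were at 291.1 to 313.7 CPM in PWS-IC deleted, against 376.9 to 630.1 in its wild types. Summed choroid plexus markers were at 351.7 to 1644 CPM in PWS-IC deleted, against 1330 to 2108 in its wild types, with overlap. All 5 markers of each of these lists were found in each group. The part of the blood, meningeal and choroid plexus markers in the values of Timm9 and 1810026J23Rik was not tested. That of reads outside genes cannot be told apart from the deletion, since the shares did not overlap (17.7% to 20.1%, against 11.4% to 13.7%). With that covariate 4 of all 13636 genes were called, against 616 without it. In Prepl knockout Timm9 had 57.7, 48.6, 48.0 and 51.4 CPM, against 44.9, 50.6, 50.2 and 47.4 in its wild types. These overlapped, with a log2 fold change of 0.12 ± 0.0921.

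Its ring partner Timm10 had 37.1, 41.7, 28.2 and 43.8 CPM in PWS-IC deleted, against 46.6, 32.4, 43.1 and 47.4 in its wild types. Timm9 therefore held 69.9% ± 3.47 of the reads of the pair in PWS-IC deleted (66.5% to 74.7%), against 63.8% ± 1.29 in its wild types (62.3% to 65.0%). The ranges did not overlap; the share was chosen after the values of both genes were seen, so it is a description. In Prepl knockout the share was 58.2% ± 1.72, against 56.2% ± 1.87 in its wild types.

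Timm13 forms another ring with Timm8 proteins, of which Timm8b was the measured one, and both gave fold changes near 0 in each mutant. Timm13 had 81.0, 65.1, 77.0 and 62.7 CPM in Prepl knockout, against 62.1, 83.4, 80.7 and 79.4 in its wild types. In PWS-IC deleted it had 105.4, 98.0, 89.7 and 93.0 CPM, against 86.3, 96.7, 108.5 and 107.9 in its wild types. Both pairs of groups overlapped, with log2 fold changes of -0.06 ± 0.0979 and -0.04 ± 0.0949. Timm8b had 151.3, 138.3, 159.2 and 165.6 CPM in Prepl knockout, against 131.9, 150.7, 146.9 and 183.0 in its wild types. In PWS-IC deleted it had 164.1, 199.7, 169.9 and 162.5 CPM, against 187.4, 176.0, 167.4 and 186.6 in its wild types. Its groups overlapped as well, with log2 fold changes of 0.04 ± 0.0856 and -0.04 ± 0.0902. Timm8b held 68.3% ± 3.10 of the reads of Timm8b and Timm13 in Prepl knockout and 66.7% ± 2.64 in its wild types, and 64.3% ± 2.65 in PWS-IC deleted and 64.3% ± 3.24 in its wild types.

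Other genes of protein import were called about as often as genes at large. Of a list of 30, which held motor, processing, assembly and chaperone genes, 29 were tested in each comparison. In the PWS-IC deletion 1 was called, against 4.52% of all genes, and 5 (17.2%) had an unadjusted p under 0.05, against 18.2% of all genes. The called gene was Hspe1, the matrix co-chaperonin that folds imported proteins with Hspd1, which had 209.3, 203.8, 191.8 and 199.3 CPM in PWS-IC deleted, against 124.0, 113.8, 125.9 and 153.3 in its wild types. Its log2 fold change was 0.65 ± 0.0921 (edgeR's quasi-likelihood test, p adjusted by Benjamini-Hochberg = 0.000347), and the call was lost only with the covariate of reads outside genes (0.90 ± 0.352, adjusted p = 0.999) among the settings tried. None was called in the Prepl knockout, where Hspe1 had the smallest p with a log2 fold change of 0.24 ± 0.0885 (edgeR's quasi-likelihood test, p adjusted by Benjamini-Hochberg = 0.370). With sex as a term, a fit that rests on 1 male wild type, that value was 0.040 ± 0.132. It was 0.155 without replicate 1 of the wild types. Next came Mtx3, an outer membrane protein of the metaxin family, at 0.28 ± 0.159, or 0.10 without replicate 2 of the knockout. The third was Grpel1, the exchange factor of the import motor, at -0.18 ± 0.106, or -0.11 ± 0.170 with sex as a term and -0.12 without replicate 2 of the wild types. In that set Hspe1 had 184.2, 149.2, 164.5 and 159.2 CPM in knockout, against 113.8, 142.3, 149.3 and 163.0 in wild types, and these overlapped. The difference between the mutant effects on Hspe1 was not past the threshold (edgeR's adjusted p = 0.189).

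**Figure D3:**
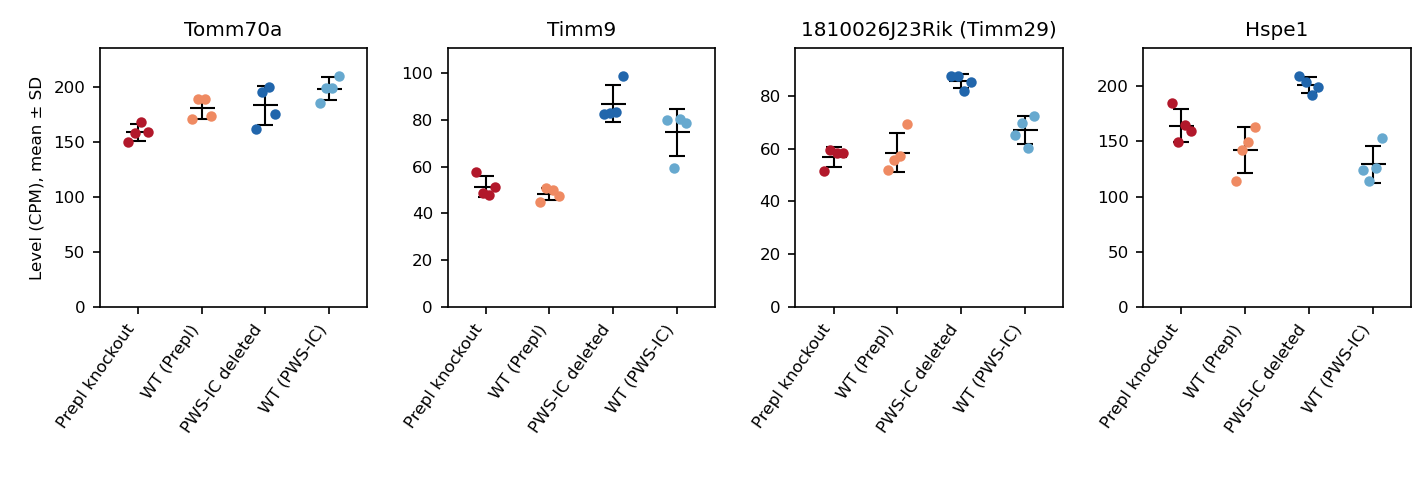
Level in CPM, from 0, of Tomm70a, Timm9, 1810026J23Rik (Timm29 in RefSeq) and Hspe1 in each library, by group; points are libraries and bars the mean ± SD of 4. Tomm70a is lower in all Prepl knockout libraries than in their wild types, and the other 3 genes are higher in all PWS-IC deleted libraries than in theirs; 1810026J23Rik and Hspe1 were called there.

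Set against each other directly, the mutant effects did not differ detectably on the members. No member was called for the difference, the PWS-IC effect minus the Prepl effect in a fit of all 16 libraries, where 0.778% of 14392 genes were (edgeR's quasi-likelihood test), and none by DESeq2 or limma voom. None had an unadjusted p under 0.05, against 11.7% of all genes. The lowest difference was that of Timm50, -0.32 ± 0.192 (edgeR's adjusted p = 0.546), and the highest that of Tomm40l, 0.31 ± 0.196 (adjusted p = 0.563). For Tomm70a it was 0.05 ± 0.111 and for Timm9 0.11 ± 0.137. The 4 tested TIM23 genes all had a difference below 0 (median -0.24), and 6 of the 7 tested TOM genes one above 0 (median 0.05), with a median over all genes of 0.00. The intervals were wider here, 11 of 19 within 0.5 of 0 and 18 within 1.

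More members were called between the sets of libraries than between mutants and their controls. In PWS-IC wild types minus Prepl wild types, 5 of 19 members were called and all were higher. Their share, 26.3%, is near the background, since 24.4% of all genes were called (12.3% called higher) in this contrast. The called members were Timm9, Timm13 and Timm8b of the small TIM chaperones and Tomm7 and Tomm22 of the TOM complex, and none of the 7 tested inner membrane genes was among them. From the values given above, Timm9 was at 59.4 to 80.3 CPM in PWS-IC wild types, against 44.9 to 50.6 in Prepl wild types, a log2 difference of 0.67 ± 0.0968 (edgeR's quasi-likelihood test, p adjusted by Benjamini-Hochberg = 7.59e-06). Tomm7 was 0.45 ± 0.0850 higher (adjusted p = 0.00026), Timm13 0.43 ± 0.0999 (0.00198), Tomm22 0.28 ± 0.0870 (0.0173) and Timm8b 0.28 ± 0.0928 (0.0285) by the same test. Of all 19 tested members, 4 had groups that did not overlap, against 24.3% of all genes. They were the called members apart from Timm8b. Tomm22 was no longer called without replicate 3 of the Prepl wild types (0.24) or replicate 4 of the PWS-IC wild types (0.21). Timm8b was not called without any 1 of 5 libraries, replicates 1, 2 or 3 of the Prepl wild types and replicates 1 or 4 of the PWS-IC wild types (0.21 to 0.26).

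The mutant libraries, a separate set of 8 compared after the data had been seen, gave 5 calls as well (PWS-IC deleted minus Prepl knockout, 28% of all genes called, 14.5% higher). Timm9 was 0.78 ± 0.0970 higher, Tomm7 0.46 ± 0.0857, Timm13 0.46 ± 0.102, Tomm22 0.42 ± 0.0882 and Tomm70a 0.23 ± 0.0790 on the log2 scale. The first 4 were also called between the wild types, whereas Timm8b missed the threshold here (0.20 ± 0.0936, edgeR's adjusted p = 0.104). The 6 small TIM genes summed to 396.6 ± 23.5 CPM in PWS-IC wild types, against 317.1 ± 30.1 in Prepl wild types, and to 395.8 ± 21.4 in PWS-IC deleted, against 314.1 ± 19.8 in Prepl knockout. Colony, handling and tissue composition cannot be told apart between the PWS-IC and Prepl libraries. Reads outside genes made up 12.3% ± 1.03 in PWS-IC wild types and 16.96% ± 1.76 in Prepl wild types. These shares did not overlap (11.4% to 13.7%, against 15.98% to 19.6%). With that share as a covariate 378 of all 14392 genes were called, against 3516 without it. Of the 5 members called between the wild types, Timm9 alone stayed called (0.69 ± 0.169, edgeR's adjusted p = 0.0217). The SE of the other 4 were larger with the covariate. Their log2 differences were 0.41 ± 0.146 for Tomm7, 0.26 ± 0.174 for Timm13, 0.19 ± 0.152 for Tomm22 and 0.012 ± 0.149 for Timm8b. Summed oligodendrocyte markers reached 65.7 to 72.6 CPM in PWS-IC wild types, against 98.5 to 167.5 in Prepl wild types, summed blood markers 1796 to 3970 CPM, against 659.9 to 1145, and summed choroid plexus markers 1330 to 2108 CPM, against 848.9 to 1379. Their part in the differences was not tested.

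**Figure D4:**
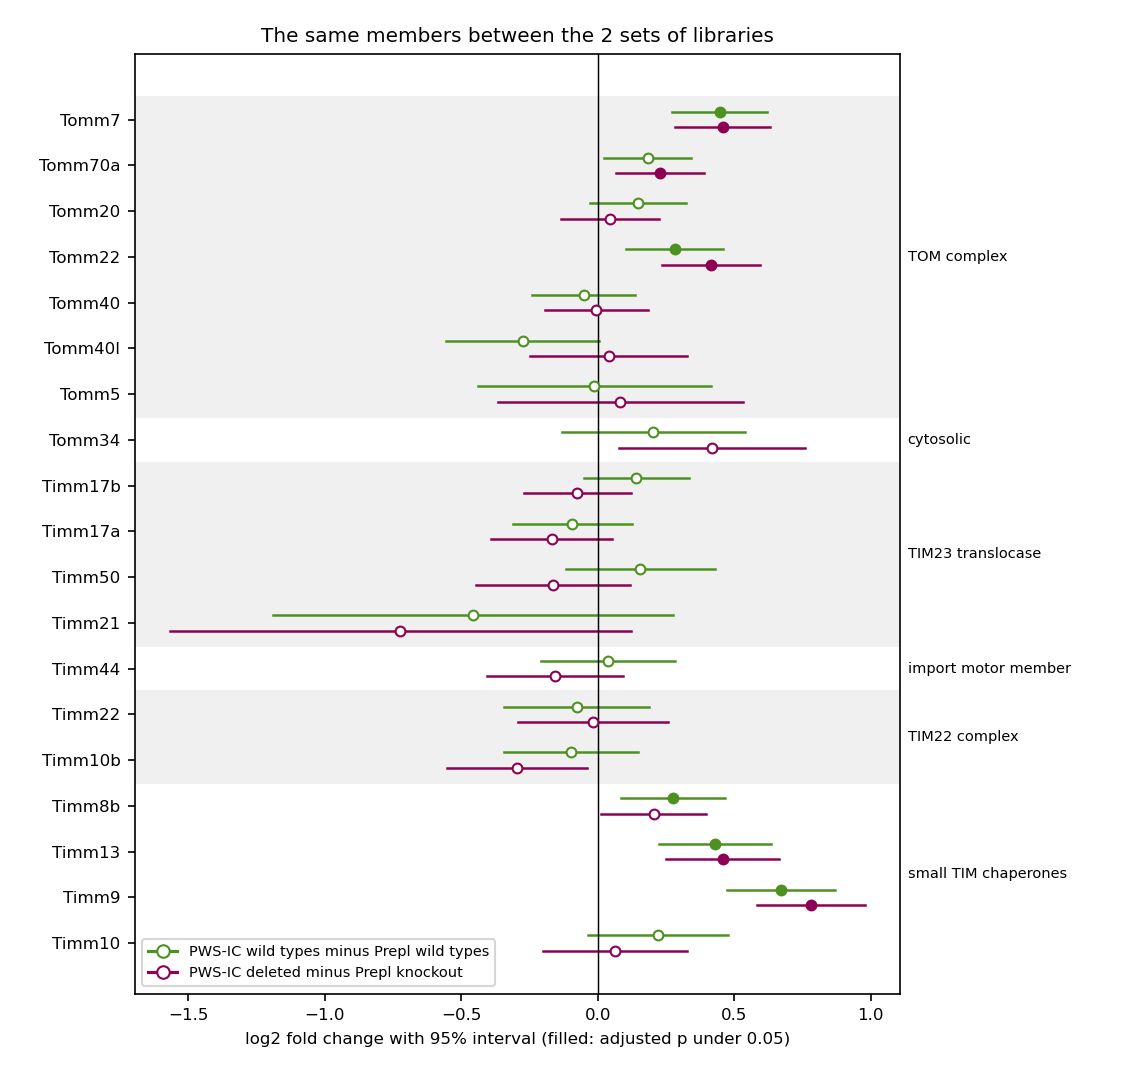
Log2 difference of each tested member with its 95% interval, PWS-IC wild types minus Prepl wild types above and PWS-IC deleted minus Prepl knockout below; filled points have an adjusted p under 0.05. Timm9, Timm13, Tomm7 and Tomm22 are filled in both comparisons, Timm8b in the first and Tomm70a in the second.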

How the data were processed

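RNA-seq was measured in 16 mouse brain libraries, made with Lexogen QuantSeq poly(A) capture and 3′ sequencing, per the labels' protocols. The authors deposited raw counts, per library a read total for each of 43472 symbols. HISAT2, HTSeq and mm10 are named in the submitters' processing notes; the versions, annotation and strand setting used were not given in the sources used here. Each table also holds 5 totals that name no gene. They stayed out of library sizes and tests: of tabled reads, 11.4% to 20.1% fell outside genes, 25.2% to 30.9% aligned to more than 1 place, 10.9% to 13.8% were unaligned and 0.390% to 0.479% were ambiguous. Depth was 3477624 to 5852716 reads in genes. Replicates differed by more than sampling noise (the lowest chi-square per degree of freedom of any pair was 2.52), so none was treated as a copy.

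From these counts, CPM (scaled by the reads in genes) and their SD were computed. Tests used edgeR 4.0.16 in R 4.3.3: filterByExpr (minimum count 10, minimum total 15), TMM, the quasi-likelihood F-test, and p-values adjusted by Benjamini-Hochberg across every tested gene, called under 0.05. Each mutant was fitted with its own wild types (8 libraries), and the difference of effects and the comparisons between sets in 1 fit of all 16. SE is the absolute log2 fold change over the square root of F, and intervals are 95%. The scripts were tested on simulated data. Coordinates are from GENCODE M21 (GRCm38, which mm10 denotes) and RefSeq GRCm38.p6. The 50-base words came from the last 500 bases of each member's protein-coding transcripts, or of all its transcripts where none was protein-coding. They were searched for along the whole length of all annotated transcripts of other genes.

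Values in every library are given for members called in a planned comparison, members with an unadjusted p under 0.05 in a mutant comparison, and Tomm20, Tomm22, Tomm40, Tomm70a, Timm22, Timm23 and Timm50. Of the other import genes, those called in a mutant comparison are named, or else the 3 with the smallest p; 1810026J23Rik, Timm10 and Timm21 were added after their values were seen. Members and lists were chosen with earlier results of these data known. Alternatives were RLE and upper-quartile factors, no filter and a stricter one (CPM above 1 in at least 4 libraries), DESeq2 1.42.0, limma 3.58.1 voom, sex, replicate number or reads outside genes as a term, all 16 libraries in 1 fit, and leaving out each library; the comparison of the mutant libraries was added after the data were seen.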

Additional observations from a re-analysis of the deposited data

Results flagged for a closer look

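In 6 cases 1 library lay far from the other 3 of its group, by a gap rule that chance alone meets in about 1 of 20 groups; 92 groups were examined. Timm22 was at 43.5 CPM in replicate 4 of PWS-IC deleted, and the other 3 were between 29.3 and 30.6. The same library had the highest Timm9, 98.7 CPM, above the 82.3 to 83.4 of the others. In PWS-IC wild types, replicate 2 had the lowest Timm9, 59.4 CPM, below the 78.4 to 80.3 of the others. Tomm7 in replicate 1 of the Prepl wild types was at 150.3 CPM, below 175.5 to 180.4. In Prepl knockout, 1810026J23Rik (Timm29) in replicate 1 was at 51.4 CPM, below 58.3 to 59.3. Reads outside genes were 19.6% in replicate 1 of the Prepl wild types, above the 15.98% to 16.3% of the others.

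Timm50 lay above its wild-type mean in all 4 Prepl knockouts and below it in all 4 PWS-IC deleted libraries. The test of that difference gave -0.32 ± 0.192 on the log2 scale, which did not pass (edgeR's quasi-likelihood test, p adjusted by Benjamini-Hochberg = 0.546).

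Reads that aligned outside genes, which no gene test uses, made up 19.1% of tabled reads in PWS-IC deleted, against 12.3% in its wild types.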

How the results depend on the processing

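No member was called in the Prepl knockout, the PWS-IC deletion or their difference under any of the settings, including each fit without 1 library. Over all genes the counts moved. In the Prepl knockout, where 36 genes were called, it was 156 with no filter on low counts, 6 with sex as a term, 61 with reads outside genes as a covariate, 18 in 1 fit of all 16 libraries, and 12 to 103 without 1 library. In the PWS-IC deletion (616) it was 945 with no filter, 1119 with sex, 4 with reads outside genes, 999 in 1 fit, and 362 to 653 without 1 library. For the difference (112) it was 222 with no filter, 170 with DESeq2, 235 with sex, 14 with reads outside genes, and 67 to 134 without 1 library. Between the wild types (3516) it was 378 with reads outside genes, where 1 of the 5 members stayed called and Tomm7 kept a log2 difference of 0.41 (0.45 without the covariate); without 1 library 3 to 5 were. Timm8b also missed the threshold there with upper-quartile factors (edgeR's adjusted p = 0.0514).

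The deviations of same-numbered samples correlated at -0.055 to 0.057 in the Prepl set. In the PWS-IC set, where same-numbered samples are of 1 sex, they did so at 0.136 to 0.170 for numbers 2 to 4 and at -0.028 for number 1. Of 4 numbers, 1 in the Prepl set and 2 in the PWS-IC set correlated best with their own, and the numbers were not taken as pairs. With the replicate block 35 genes were called in the Prepl knockout, 989 in the PWS-IC deletion, 96 for the difference and 3441 between the wild types, and no member's call changed.

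Of 774 values for named genes under other settings, 720 kept direction and side of the threshold, 32 changed sign, 21 lost a call and 1 gained one. The comparison of the mutant libraries was counted among these settings for the wild types, though it uses other libraries. The gained call (Tomm70a) and a lost call of Timm8b came from it and do not reflect processing. None of the sign changes was in a comparison where the gene itself was called, though some of these genes were called in another comparison. In the Prepl knockout they were Timm22 (0.10), Timm8b (-0.22) and Tomm20 (0.054) with sex, Tomm7 (0.0027) with reads outside genes, and 1810026J23Rik (0.00042 with the replicate block, 0.042 with reads outside genes). The Prepl values with sex rest on 1 male wild type. In the PWS-IC deletion, with reads outside genes, they were Timm13 (0.34), Timm22 (0.70), Timm50 (0.53), Timm8b (0.24), Tomm20 (0.13) and Tomm70a (0.23), and for the difference Timm50 (0.41). The SE of those PWS-IC values ran from 0.324 for Tomm70a to 0.531 for Timm22. Without 1 library the Prepl values ran from -0.15 to 0.0042 for Timm22, -0.022 to 0.14 for Timm8b, -0.060 to 0.042 for Tomm20, -0.084 to 0.0030 for Tomm22, -0.076 to 0.0061 for Tomm7 and -0.053 to 0.086 for 1810026J23Rik. The PWS-IC values ran from -0.10 to 0.0052 for Timm13, -0.19 to 0.033 for Timm22, -0.12 to 0.0028 for Timm8b and -0.082 to 0.033 for Tomm7. The cause of these changes was not tested. Timm8a1, Timm8a2, Tomm20l and Tomm6os were too low to test, and Timm21 gave wide intervals. Timm23 and Tomm6 were also too low to test and share most of their words with other genes. The part of that sharing in their low counts was not tested.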
